A study of Mus musculus with 30 samples.

Results

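The 34 constitutive proteasome subunit genes were followed in mouse liver across 2 drug treatments and 4 genotypes of the xenobiotic receptors CAR and PXR. Members were the genes Psma1 to Psma7, Psmb1 to Psmb7, Psmc1 to Psmc6 and 14 Psmd genes, each read from the probe set annotated to that gene alone with the highest mean over all 30 arrays. They make up 34 of the 18193 genes with a probe set of their own. All 34 were bright enough to be tested among 12795 genes, meaning a signal above the median of the array in 3 or more of the 30 arrays.

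The proteasome is the protease that degrades ubiquitin-tagged proteins in the cytosol and nucleus. Its barrel-shaped core is built from alpha rings, which form the gate, and beta rings, which carry the cutting sites, and it is capped by a regulatory particle whose ATPase ring unfolds substrates and whose non-ATPase subunits bind them and remove ubiquitin. Subunit genes are transcribed in a coordinated way, in part through the transcription factor NRF1 (Nfe2l1) and the related oxidative stress factor NRF2, which bind antioxidant response elements. The liver holds much proteasome because hepatocytes turn over large amounts of protein, including cytochrome P450 enzymes that drugs induce.

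Livers came from adult male mice on a C57BL/6J background, and 10 groups of 3 arrays each were used. Wild type mice, hCAR/hPXR mice (humanised for both receptors) and CARko/PXRko mice (both receptors deleted) each received corn oil, 1,4-dichlorobenzene (DCB, an industrial chlorinated benzene, 600 mg/kg daily by gavage) or cyproterone acetate (CPA, a steroidal antiandrogen, 160 mg/kg daily by gavage), and PXRko mice (PXR deleted) received corn oil alone. The labels give 3 days for every corn oil and DCB group and for CPA in CARko/PXRko mice, but 6 days for CPA in wild type and hCAR/hPXR mice, whereas the protocol text states 3 days for both drugs. The design states 5 mice per group, and neither the source of each array as a separate mouse nor the promoter behind the human receptors is stated in the labels, so p-values cover only the spread between the deposited samples, which may be technical.

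Values were log2 signals, on which a difference of 1 is a doubling, and array medians lay between 5.36 and 5.44. The receptor probe sets followed the genotypes: Nr1i3, which encodes mouse CAR, lay between 9.32 and 10.6 in wild type, 9.58 and 10.09 in PXRko, 6.05 and 6.82 in hCAR/hPXR and 6.1 and 6.86 in CARko/PXRko livers, and Nr1i2 (PXR) lay between 6.75 and 8.06 in wild type livers and at or below 4.97 in the others. All 6 hepatocyte markers measured lay above the array median on every array, with summed levels of 16.95 to 17.27. Skeletal muscle transcripts stood apart on 4 arrays, with list medians of 7.48 (CARko/PXRko corn oil replicate 2), 7.08 and 2.45 (CARko/PXRko DCB replicates 3 and 2) and 1.65 log2 units (PXRko corn oil replicate 3) above wild type corn oil. Transcripts of other tissues stood apart on the same CARko/PXRko DCB arrays: list medians on replicate 3 were 8.18 (brown fat), 5.0 (adrenal cortex), 3.70 (white fat) and 1.71 (neutrophils) above wild type corn oil, and on replicate 2 the squamous epithelium list was 3.73 above it. Replicate 1 was the one DCB array of this genotype on which no such list exceeded 1 log2 unit. Comparisons of the CARko/PXRko livers are therefore also given without them where that changed a call.

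Under DCB a part of the 34 subunit transcripts rose in wild type and hCAR/hPXR livers, with calls in each ring and in the regulatory particle, but not for every subunit. In wild type livers 12 of 34 members rose, with a median effect over all 34 of 0.61 (1.53-fold) and a range from 0.03 (Psmd10) to 0.99 (Psmd14). With the human receptors, in hCAR/hPXR livers, 26 of 34 rose, with a median of 0.71 (1.64-fold) and a range from 0.01 (Psmd10) to 1.05 (Psmb5). Without either receptor, in CARko/PXRko livers, only Psmb5 rose, although the fitted differences of all 34 lay above 0, with a median of 0.26 (1.2-fold). No member fell under DCB in any of these genotypes, where 0.125%, 4.35% and 0% of all genes tested fell. In whole-liver RNA, more cells of a type and more RNA per cell cannot be told apart.

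Calls rest on limma's moderated test with Benjamini-Hochberg adjustment over the 12795 genes, at an adjusted p under 0.05. Over all genes tested, the share called higher was 0.61% for DCB in wild type (0.735% in both directions), 3.29% in hCAR/hPXR (7.64%) and 0.117% in CARko/PXRko livers (0.117%), and the median effect of all genes was -0.01, -0.02 and 0.01. All 3 treated arrays lay above all 3 corn oil arrays for 30 members in wild type, 31 in hCAR/hPXR and 21 in CARko/PXRko livers, against 10.2%, 10% and 5.99% of all genes. At an unadjusted p under 0.05 there were 31, 32 and 12 members, against 10.1%, 23% and 8.1% of all genes. The wild type count varied most with the arrays used. It was 21 without DCB replicate 3 and 4, 6, 8, 5 and 11 without DCB replicates 1 and 2 and corn oil replicates 1, 2 and 3, while in hCAR/hPXR livers it stayed between 18 and 25. The share of all genes called in either direction moved too. In the wild type fits it was 0.899% without DCB replicate 3 and 0.289%, 0.61%, 0.391%, 0.375% and 0.485% in the others, in the same order. In hCAR/hPXR livers it was 2.63% to 8.25%. With array weights the subunit count was 31 in wild type livers, where 4.17% of all genes were then called higher. This count fell to 1 in wild type and 8 in hCAR/hPXR livers when tested against a fold of 1.2, and to 4 in each when only the groups compared were fitted.

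**Figure D1:**
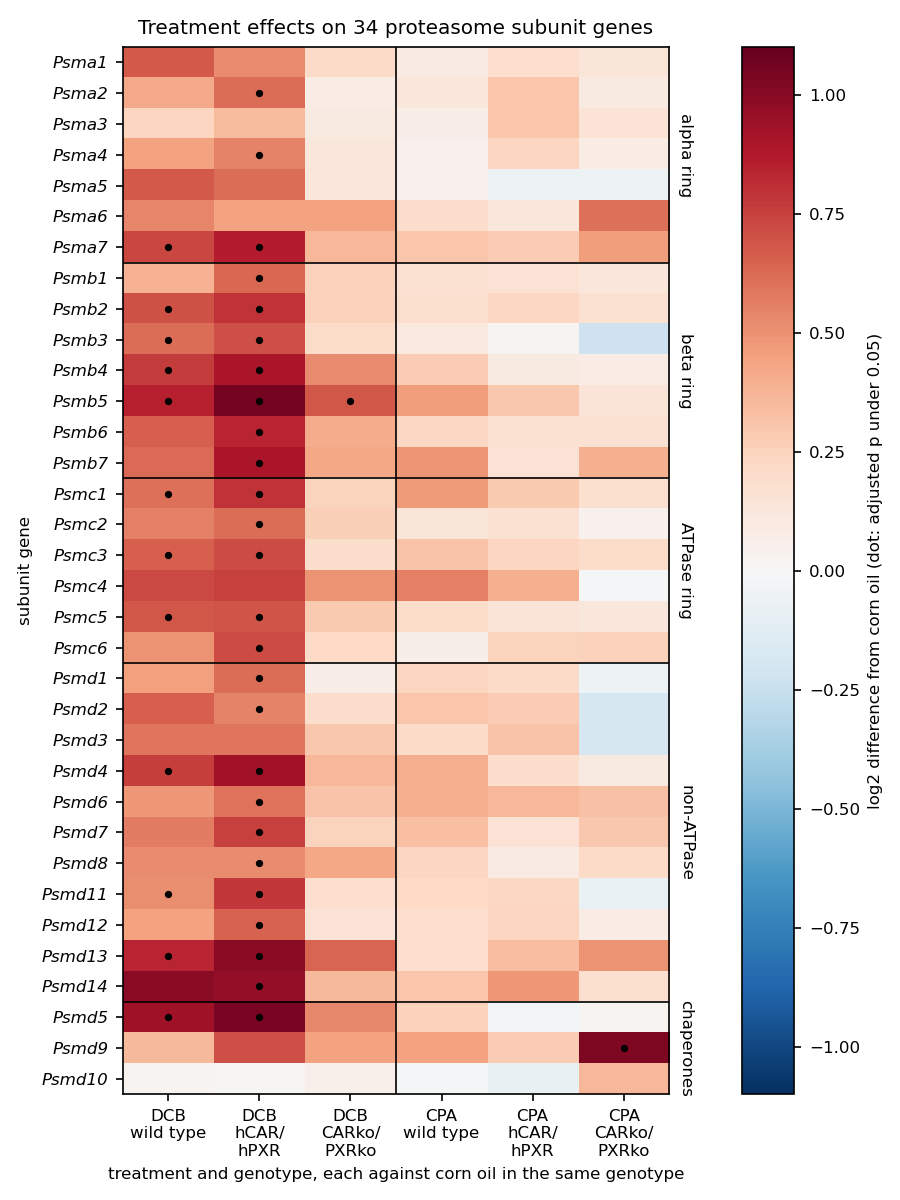
Fitted log2 difference from corn oil of the same genotype for each of the 34 subunit genes (rows, grouped by their place in the complex) under DCB and CPA in 3 genotypes (columns); a dot marks an adjusted p under 0.05. The DCB columns of wild type and hCAR/hPXR mice are red for nearly every row, with 12 and 26 dots, and the remaining 4 columns hold 2 dots in all (Psmb5 and Psmd9).

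All 12 members that rose in wild type livers also rose in hCAR/hPXR livers, which is 100% of the first list and 46.2% of the second. They were Psma7, Psmb2, Psmb3, Psmb4, Psmb5, Psmc1, Psmc3, Psmc5, Psmd4, Psmd5, Psmd11 and Psmd13, so each layer of the complex was represented. On the probe sets used, Psma1, Psma3, Psma5, Psma6, Psmc4, Psmd3, Psmd9 and Psmd10 were called in neither genotype. In a fit of all probe sets, however, a second probe set of Psma5 (0.81 and 0.92) and of Psmc4 (0.80 and 1.00) was called higher in both. The other tested probe sets of Psma1, Psma3, Psma6 and Psmd9 were called in neither. A second probe set of Psmc2 (0.60) was called in wild type livers, where the one used was not. Calls were also lost on second probe sets. That of Psmb4 (0.62 and 0.52), nearly as bright as the one used, was called in neither genotype. Those of Psma7 (0.67) and Psmd13 (0.57) were not called in wild type livers, nor those of Psmc6 (0.63 and 0.64) and Psmd6 (0.42) in hCAR/hPXR livers. The effect of a member in wild type livers went with its effect in hCAR/hPXR livers, which share no arrays (Pearson's r = 0.83 and Spearman's rho = 0.7 across the 34 members, which are not independent replicates), and 27 of 34 were larger in hCAR/hPXR livers.

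Member medians lay above those of the corn oil arrays on every DCB array. The median over the 34 members of the difference from the mean of the genotype's own corn oil arrays was 0.78, 0.72 and 0.33 on the wild type DCB arrays, 0.70, 0.70 and 0.75 on the hCAR/hPXR ones, and 0.23, 0.37 and 0.15 on the CARko/PXRko ones. Corn oil arrays lay between -0.08 and 0.14 on the same measure. Wild type DCB replicate 3 was thus the lowest of its group, yet 30 of its 34 members still exceeded all wild type corn oil arrays. Of the CARko/PXRko arrays, the 2 DCB arrays rich in muscle transcripts held both the highest (replicate 2) and the lowest (replicate 3) of the 3 values.

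**Figure D2:**
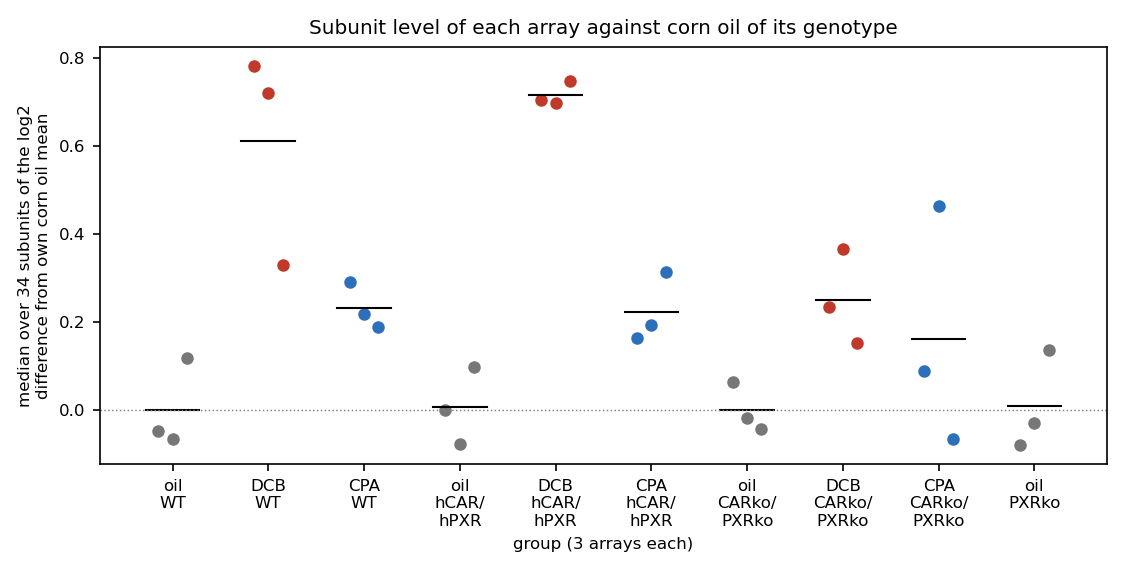
Median over 34 subunit genes of the log2 difference from the mean corn oil level of the same genotype (vertical axis), for each of the 3 arrays of 10 groups (points; grey corn oil, red DCB, blue CPA; line, group mean). DCB arrays of wild type mice sit at 0.33 to 0.78 and those of hCAR/hPXR mice at 0.70 to 0.75, above the corn oil arrays at -0.08 to 0.14.

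Promoters are shown for the member with the largest DCB effect in hCAR/hPXR livers (Psmb5), for the large effects of Psmd13 and Psmd14, and for Psmd9 and Psmd10, which departed from the group. Each line gives the 100 bases before the annotated start, 5′ to 3′ on the gene's strand, from RefSeq on GRCm38.p6, where 28 of the 34 members had a promoter entry. Capitals mark TGACNNNGC, the core of the antioxidant response element with N for any base, or the CCAAT box, each searched on both strands.
Psmb5 (chr14:54617996-54618095, minus strand): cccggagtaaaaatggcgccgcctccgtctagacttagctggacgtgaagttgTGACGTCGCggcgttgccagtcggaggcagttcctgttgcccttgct
Psmd13 (chr7:140882294-140882393, plus strand): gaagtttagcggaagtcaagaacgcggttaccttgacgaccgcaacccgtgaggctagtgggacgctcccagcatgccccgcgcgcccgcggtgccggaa
Psmd14 (chr2:61711594-61711693, plus strand): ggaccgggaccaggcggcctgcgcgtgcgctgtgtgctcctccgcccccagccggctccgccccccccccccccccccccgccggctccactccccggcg
Psmd9 (chr5:123228090-123228189, plus strand): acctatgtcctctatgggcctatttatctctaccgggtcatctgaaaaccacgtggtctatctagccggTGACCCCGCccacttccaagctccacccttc
Psmd10 (chrX:140956712-140956811, minus strand): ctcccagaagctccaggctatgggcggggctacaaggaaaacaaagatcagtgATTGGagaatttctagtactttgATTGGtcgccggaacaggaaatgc

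The Psmb5 match began 47 bases before the start and the Psmd9 match 31 bases before it. Over windows from 250 bases before to 50 after the start, TGACNNNGC was found in 5 of 28 members (Psmb5, Psmb6, Psmc6, Psmd9 and Psmd12; 17.9%) and in 14% of 27025 genes. The looser TGANNNNGC, which contains the first motif, was found in 16 members (57.1%) and 45% of genes. CCAAT was found in 11 members (39.3%) and 41.1% of genes. The median DCB effect of the members holding TGACNNNGC was 0.50 in wild type and 0.72 in hCAR/hPXR livers, against 0.61 and 0.62 in those without it. A match is a description of these letters and not of factor binding.

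The beta ring holds the proteolytic sites. Under DCB 4 of its 7 members rose in wild type, 7 of 7 in hCAR/hPXR and 1 of 7 in CARko/PXRko livers, with medians of 0.66, 0.84 and 0.41. The shares of all genes called higher were 0.61%, 3.29% and 0.117%, so calls were also more frequent over all genes in hCAR/hPXR livers. Psmb5, the chymotrypsin-like site, read 11.49, 11.50 and 11.80 on the wild type corn oil arrays and 12.56, 12.45 and 12.35 on the DCB arrays. The groups did not overlap, and the difference was 0.86 ± 0.12 (SE; 1.81-fold; adjusted p = 0.000515, limma). It read 11.50, 11.56 and 11.85 under corn oil and 12.54, 12.73 and 12.79 under DCB in hCAR/hPXR livers. That difference of 1.05 ± 0.12 (2.07-fold; adjusted p = 1.81e-05) was the largest of any member in that genotype.

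In CARko/PXRko livers Psmb5 read 11.78, 11.67 and 11.59 under corn oil and 12.30, 12.54 and 12.24 under DCB. It was again higher on every DCB array, by 0.68 ± 0.12 (1.6-fold; adjusted p = 0.0152). DCB replicate 1, the array of that group without raised transcripts of other tissues, lay above all 3 corn oil arrays. Summed levels on the DCB and corn oil arrays of this genotype were 9.62 to 16.98 and 9.64 to 17.11 for muscle, 9.37 to 15.1 and 12.06 to 13.37 for brown fat, 8.12 to 13.43 and 8.04 to 8.3 for adrenal cortex, and 8.14 to 12 and 7.82 to 7.95 for squamous epithelium, where 1 of 3 tested markers rose, against 0.117% of all genes. The call ended without corn oil replicate 1 or 3 or without DCB replicate 2, and also without the 4 arrays with muscle transcripts, which leaves 1 DCB array (replicate 1) against 2 corn oil arrays, at a difference of 0.61; that lone array is assumed to vary like the other groups, so the lost call says little. The call was kept without the 2 arrays richest in muscle transcripts.

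The other cutting sites rose in hCAR/hPXR livers and were not called in wild type or CARko/PXRko livers. Psmb6, the caspase-like site, read 11.62, 11.63 and 11.91 under corn oil and 12.61, 12.51 and 12.02 under DCB in wild type livers, a difference of 0.66 ± 0.16 that just missed the threshold (adjusted p = 0.0502, limma). Psmb6 rose in hCAR/hPXR livers, from 11.66, 11.67 and 11.92 to 12.42, 12.54 and 12.82 (0.84 ± 0.16, adjusted p = 0.00237). Psmb7, the trypsin-like site, read 9.05, 8.96 and 9.49 under corn oil and 10.02, 9.68 and 9.66 under DCB in wild type livers (0.62 ± 0.20, adjusted p = 0.185). In hCAR/hPXR livers it rose from 9.34, 9.10 and 9.55 to 9.88, 10.22 and 10.59 (0.90 ± 0.20, adjusted p = 0.00785). The CARko/PXRko arrays of Psmb6 read 11.87, 11.61 and 11.71 under corn oil and 12.20, 12.28 and 11.94 under DCB (0.41, adjusted p = 0.507). Those of Psmb7 read 9.27, 9.36 and 9.12 against 9.64, 9.77 and 9.61 (0.42, adjusted p = 0.602). DCB and corn oil arrays of both genes did not overlap in any of the 3 genotypes.

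Psmb4 is a structural beta subunit. In wild type livers it read 12.20, 12.12 and 12.14 under corn oil and 13.06, 13.02 and 12.67 under DCB (0.77 ± 0.12, adjusted p = 0.000926). In hCAR/hPXR livers it read 12.22, 12.16 and 12.30 against 13.13, 13.08 and 13.15 (0.89 ± 0.12, adjusted p = 6.03e-05). The CARko/PXRko arrays read 12.22, 12.09 and 12.07 against 12.60, 12.91 and 12.42, higher on every DCB array by 0.52 ± 0.12 without passing the test (adjusted p = 0.0827). Psmb1, Psmb2 and Psmb3, likewise without cutting sites, rose in hCAR/hPXR livers by 0.63, 0.80 and 0.71.

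In the alpha ring, the outer ring that gates the channel, only Psma7 of 7 members rose in wild type livers (0.73 ± 0.16, adjusted p = 0.027), and Psma2, Psma4 and Psma7 rose in hCAR/hPXR livers (0.61, 0.55 and 0.87). Of all genes, 0.61% and 3.29% rose in these genotypes. The ring's medians were 0.54 and 0.55 there and 0.12 in CARko/PXRko livers, where none of the 7 was called. On the probe sets used, Psma1 and Psma5 had wild type differences of 0.67 each with standard errors of 0.21 and 0.20, which left adjusted p at 0.16 and 0.137. Psma3 had the smallest differences of the ring, 0.24 and 0.35.

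In the ATPase ring, the motor that unfolds substrates, 3 of 6 members rose in wild type and 5 of 6 in hCAR/hPXR livers, with medians of 0.63 and 0.72. The shares of all genes that rose were 0.61% and 3.29%. Psmc5 read 10.61, 10.55 and 10.77 under corn oil and 11.42, 11.46 and 11.09 under DCB in wild type livers (0.68 ± 0.12, adjusted p = 0.00341). All DCB arrays of Psmc5 lay above all corn oil arrays in both genotypes, and it rose by 0.69 ± 0.12 in hCAR/hPXR livers (adjusted p = 0.00106). On the probe set used, Psmc4 was called in neither genotype despite differences of 0.72 and 0.75, each with a standard error of 0.25. Its wild type DCB arrays read 12.33, 12.05 and 11.01, the last just under the corn oil range of 11.04 to 11.13. None of the ring was called in CARko/PXRko livers, where the median was 0.26.

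Among the 11 non-ATPase subunits of the regulatory particle, 3 rose in wild type and 10 in hCAR/hPXR livers (medians 0.56 and 0.65), and none in CARko/PXRko livers (median 0.29). The shares of all genes that rose were 0.61%, 3.29% and 0.117%. Psmd4, a ubiquitin receptor, read 11.25, 11.30 and 11.52 under corn oil and 12.21, 12.18 and 11.96 under DCB in wild type livers (0.76 ± 0.12, adjusted p = 0.00115). In hCAR/hPXR livers Psmd4 read 11.46, 11.37 and 11.44 against 12.24, 12.32 and 12.50 (0.93 ± 0.12, adjusted p = 5.02e-05), again without overlap. The CARko/PXRko arrays read 11.60, 11.46 and 11.55 against 11.74, 12.14 and 11.82, a difference of 0.36 (adjusted p = 0.332). Psmd11, a lid scaffold subunit, rose by 0.51 in wild type and 0.77 ± 0.10 in hCAR/hPXR livers, where 11.62, 11.44 and 11.46 became 12.28, 12.31 and 12.25 (adjusted p = 6.03e-05).

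Psmd14, the lid enzyme that cuts ubiquitin chains off substrates, had the largest wild type difference but not a call. It read 10.71, 10.62 and 10.90 under corn oil and 12.00, 11.94 and 11.28 under DCB (0.99 ± 0.25, adjusted p = 0.062). DCB replicate 3 was the low array of that group, although above every control. In hCAR/hPXR livers 10.88, 10.82 and 10.99 became 11.98, 11.85 and 11.76 (0.97 ± 0.25, adjusted p = 0.0183), and in CARko/PXRko livers 10.88, 10.81 and 10.78 stood against 11.34, 11.19 and 11.02 (0.36 ± 0.25, adjusted p = 0.769). Psmd13, another lid subunit, rose by 0.84 and 0.99 in the first 2 genotypes. Its CARko/PXRko arrays read 9.36, 9.43 and 9.08 under corn oil and 9.85, 10.22 and 9.72 under DCB, without overlap and without a call (0.64 ± 0.18, adjusted p = 0.19).

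Psmd2 and Psmd3, non-ATPase subunits of the regulatory particle, behaved differently on 1 array. Psmd2 read 11.38, 11.42 and 11.26 under corn oil and 12.20, 12.19 and 11.31 under DCB in hCAR/hPXR livers. DCB replicate 3 was therefore within the control range, and the call for Psmd2 (0.55 ± 0.16, adjusted p = 0.0371) was kept in 1 of the 6 fits that left out 1 array. Psmd3 likewise read 9.92, 9.59 and 8.99 under DCB against 9.05, 8.98 and 8.70 and was not called (0.59 ± 0.19, adjusted p = 0.0632).

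The 3 base assembly chaperones, which help build the ATPase ring and leave before the particle is complete, parted from each other. Psmd5 rose like the strongest subunits, from 9.06, 8.84 and 9.17 to 10.02, 9.87 and 9.98 in wild type livers (0.93 ± 0.18, adjusted p = 0.00889) and by 1.04 ± 0.18 in hCAR/hPXR livers (2.06-fold, adjusted p = 0.00106). Psmd10, also known as gankyrin, did not separate from its controls in any genotype: the wild type arrays read 7.99 to 8.17 under corn oil and 8.0 to 8.15 under DCB, and the 3 DCB differences were 0.03, 0.01 and 0.06, each with a standard error of 0.22. Psmd9 was not called under DCB (0.35, 0.71 and 0.44). Single arrays stood out for it, namely 10.82 on hCAR/hPXR DCB replicate 3 beside 9.69 and 9.64, and 10.43 on CARko/PXRko DCB replicate 2 beside 9.28 and 8.86.

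**Figure D3:**
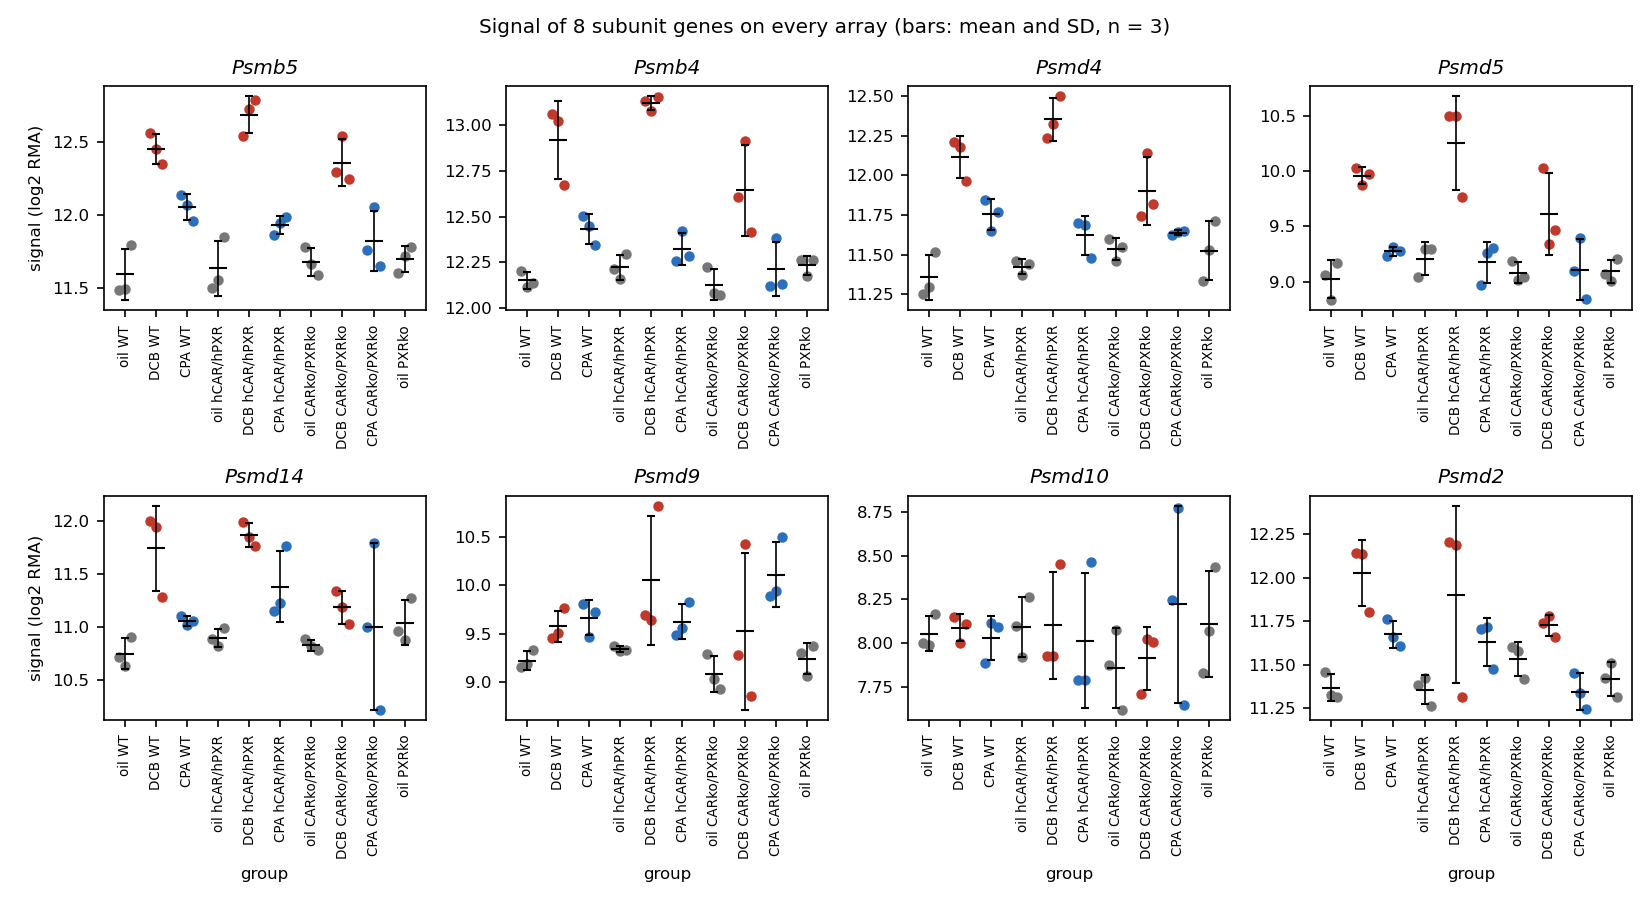
Log2 signal of 8 subunit genes on each of the 3 arrays of 10 groups (points; grey corn oil, red DCB, blue CPA), with group mean and SD (bars). Psmb5, Psmb4, Psmd4, Psmd5 and Psmd14 are higher on every DCB array than on every corn oil array in wild type and hCAR/hPXR mice, Psmd10 is not, and Psmd9 and Psmd2 show single arrays far from their group.

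Under CPA a single call was made among the same genes in 3 genotypes. No member passed limma's test in wild type livers, where the median effect was 0.22 (1.16-fold) and 33 of 34 differences lay above 0. None passed in hCAR/hPXR livers, with a median of 0.23 (1.17-fold) and 31 above 0. In CARko/PXRko livers 1 of 34 rose, Psmd9, with a median of 0.14 (1.1-fold) and 27 above 0. Of all genes tested, 1.12%, 4.42% and 5.49% were called in these comparisons, of which 0.485%, 1.52% and 2.18% were called higher and 0.633%, 2.9% and 3.31% lower; no member was called lower. At an unadjusted p under 0.05 there were 10, 3 and 5 members, against 10.3%, 16% and 21.1% of all genes. All treated arrays exceeded all corn oil arrays for 19, 17 and 7 members, against 11.7%, 9.7% and 10.9% of all genes. Within a genotype the CPA and DCB effects share their corn oil arrays and are given side by side only.

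With array weights, 17 members were called higher in wild type livers under CPA, but that fit also called 5.85% of all genes higher, against 0.485% without weights, and when all probe sets of a gene were averaged 1 was called in hCAR/hPXR livers. The labelled duration of CPA also differs between genotypes, so genotype and duration cannot be told apart in these 3 comparisons.

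Psmb5 came nearest to a call under CPA in wild type livers. It read 12.14, 12.07 and 11.96, above all 3 corn oil arrays (0.46 ± 0.12, adjusted p = 0.0731, limma), and it read 11.87, 11.95 and 11.99 in hCAR/hPXR livers (0.30, adjusted p = 0.216). The CARko/PXRko CPA arrays of Psmb5 read 11.76, 12.05 and 11.65 and overlapped the controls (0.14). Psmd4 read 11.84, 11.65 and 11.77 under CPA in wild type livers (0.40, adjusted p = 0.118), and Psmc1, an ATPase subunit, read 11.04 on all 3 arrays against 10.59, 10.51 and 10.62 (0.46, adjusted p = 0.123). Psmd6, a lid subunit, read 11.91, 11.93 and 11.87 against 11.52, 11.36 and 11.64 (0.39, adjusted p = 0.228). These genes did not overlap with their controls in wild type livers. Psmd6 in hCAR/hPXR livers, with 11.82, 11.91 and 12.13 against 11.48, 11.55 and 11.73, had the smallest adjusted p of any member (0.163, for a difference of 0.37), while Psmc1 read 10.90, 10.97 and 10.93 against 10.70, 10.49 and 10.74 (0.29). Psmd11 read 11.79, 11.84 and 11.57 against 11.62, 11.44 and 11.46 there, with overlap (0.23).

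The remaining cutting sites and the lid enzyme were not called under CPA. Psmb6 read 12.01, 11.92 and 11.90 in wild type, 11.81, 11.87 and 12.07 in hCAR/hPXR and 11.88, 12.20 and 11.61 in CARko/PXRko livers, and overlapped its controls in each (0.23, 0.17 and 0.17). Psmb7 read 9.83, 9.59 and 9.52 in wild type livers, above all 3 controls (0.48). It read 9.34, 9.32 and 9.81 in hCAR/hPXR and 9.58, 10.05 and 9.31 in CARko/PXRko livers, overlapping the controls (0.16 and 0.39). Psmd14 lay above all its controls with 11.10, 11.01 and 11.05 in wild type and 11.15, 11.22 and 11.76 in hCAR/hPXR livers (0.31 and 0.48). Its CARko/PXRko CPA arrays read 10.996, 11.79 and 10.22, on both sides of the controls at 10.78 to 10.88 (0.17).

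Psmd9 under CPA in CARko/PXRko livers was the single call, and it was not stable. It read 9.29, 9.03 and 8.93 under corn oil and 9.89, 9.94 and 10.50 under CPA, without overlap (1.03 ± 0.29, 2.04-fold, adjusted p = 0.0376). The call was lost in all 6 fits that left out 1 array and kept in 7 of 12 other settings. The other probe sets of Psmd9, dimmer at mean levels of 6.85 and 4.76, differed by 0.27 and 0.24 without a call. The 3 CPA arrays of this genotype also differed among themselves across the complex, with member medians of 0.09, 0.46 and -0.07. Alpha ring medians on these arrays were 0.17, 0.60 and -0.38. The next smallest p in this comparison were those of Psmd13, Psma7 and Psma6, none of them called. Psmd13 read 9.36, 9.43 and 9.08 under corn oil and 9.67, 10.18 and 9.51 under CPA (0.50 ± 0.18, adjusted p = 0.0997). Psma7 read 10.96, 11.14 and 10.82 against 11.41, 11.71 and 11.17 (0.46 ± 0.16, adjusted p = 0.104), and Psma6 read 11.49, 11.81 and 11.62 against 12.12, 12.80 and 11.81 (0.61 ± 0.22, adjusted p = 0.108). CPA arrays of these 3 genes lay above all corn oil arrays, that of replicate 2 highest each time.

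Whether the DCB response depended on genotype was tested as a difference of effects in the same model. No member was called in any of 6 such tests, and over all genes 0%, 0% and 0.00782% were called for the 3 DCB ones and 0.0625%, 0.0703% and 0% for the CPA ones. Between hCAR/hPXR and wild type livers the median difference in DCB effect was 0.11, with no member at an unadjusted p under 0.05, against 3.11% of all genes. For hCAR/hPXR minus CARko/PXRko the median was 0.43, 32 of 34 lay above 0, and 16 members had an unadjusted p under 0.05 against 6.78% of all genes. Psmd11 had the smallest p, with a difference of 0.59 ± 0.14 (95% interval 0.29 to 0.89; adjusted p = 0.443, limma). For CARko/PXRko minus wild type the median was -0.31, 32 of 34 lay below 0, and 7 members had an unadjusted p under 0.05 against 2.53%. For CPA, hCAR/hPXR minus wild type, CARko/PXRko minus wild type and hCAR/hPXR minus CARko/PXRko had medians of -0.04, -0.08 and 0.05, with 0, 1 and 1 members at an unadjusted p under 0.05, against 4.91%, 7.56% and 6.56% of all genes. Psmb5, the one member called in all 3 genotypes, differed by 0.37 between hCAR/hPXR and CARko/PXRko livers (interval 0.01 to 0.73) and by -0.18 between CARko/PXRko and wild type livers (interval -0.54 to 0.19).

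**Figure D4:**
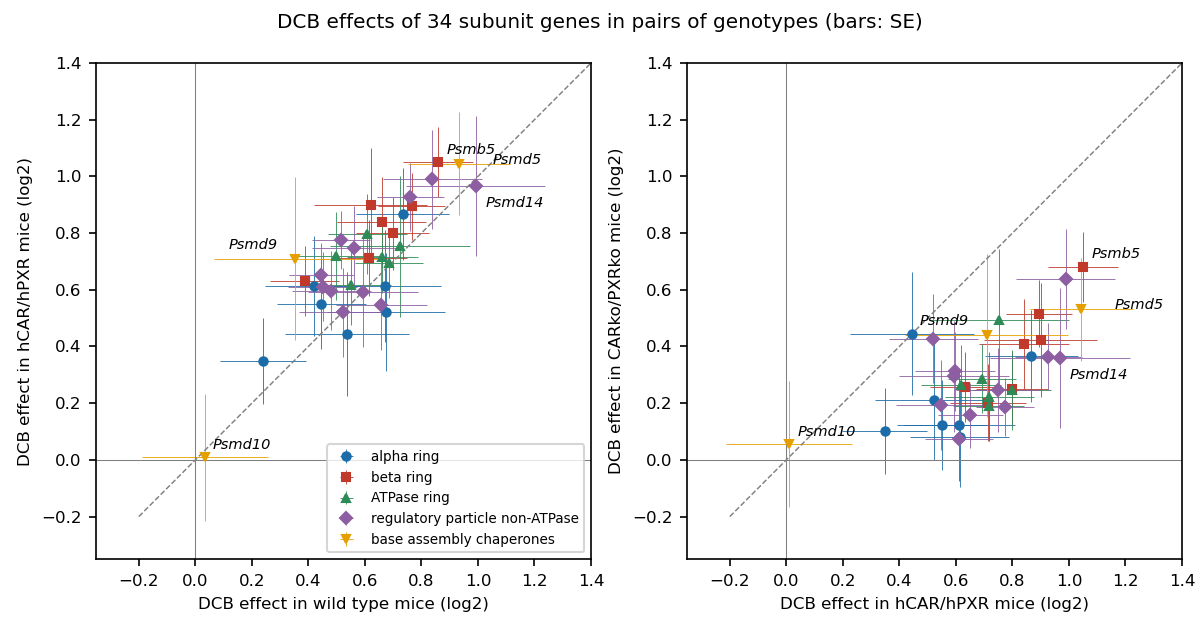
DCB effect of each of the 34 subunit genes (points, with SE bars; colour and shape give the place in the complex) in hCAR/hPXR against wild type mice (left) and in CARko/PXRko against hCAR/hPXR mice (right), in log2 units; the dashed line marks equal effects. On the left, 27 points lie above the line; on the right, 32 lie below it and Psmd10 sits near 0 in both panels.

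At rest the genotypes gave no calls. No member passed between hCAR/hPXR and wild type, CARko/PXRko and wild type, PXRko and wild type or CARko/PXRko and PXRko livers under corn oil, and none had an unadjusted p under 0.05 in limma's test. Over all genes 0.0234%, 0.0391%, 0.0234% and 0.0156% were called, and 1.45%, 3.31%, 1.72% and 2.76% had an unadjusted p under 0.05. Member medians were 0.06, 0.05, 0.11 and -0.05. The extreme members were Psmb3 (-0.14) and Psma6 (0.19) in the first comparison, Psmd10 (-0.20) and Psmd4 (0.18) in the second, and Psmd13 (0.01) and Psmd14 (0.29) in the third.

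Members also varied together between arrays of the same group. After subtraction of the group means, the median correlation over 561 pairs of members was 0.55 and 88.2% of pairs were above 0, whereas pairs of a member with another tested gene had a median of 0.01 with 50.9% above 0. These pairs share the same 30 arrays and their scaling. Psmb6 had the highest median correlation with the other members (0.72), followed by Psmc6 (0.7). Psmd3 (-0.21), Psmd2 (-0.01) and Psmd9 (0.07) had the lowest medians, and each had 1 array apart from the other 2 in the hCAR/hPXR DCB group. Psma1 (0.45) and Psmd10 (0.57) also had 1 array apart there, and a link between the 2 traits was not tested.

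A further check used the other probe sets of the members. The 34 genes had 72 probe sets, 19 genes had several, and 30 of the 38 probe sets not used above were bright enough to test. Of these 30, 6 rose under DCB in wild type, 10 in hCAR/hPXR and none in CARko/PXRko livers, and none fell, whereas 0.672%, 3.02% and 0.0783% of all 21724 probe sets tested rose. Differences above 0 were found for 27, 26 and 21 of them, with medians of 0.27, 0.51 and 0.15.

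The immunoproteasome subunits, which replace the constitutive cutting sites in immune cells and under interferon, had negative medians under both drugs. Psmb8, Psmb9 and Psmb10 and the PA28 activator subunit Psme1 were measured. Under DCB none of these 4 was called in wild type or CARko/PXRko livers, and in hCAR/hPXR livers Psme1 rose (0.46, adjusted p = 0.042) while Psmb8, Psmb9 and Psmb10 had differences of -0.34, -0.64 and -0.39 that were not called. In hCAR/hPXR livers 3.29% of all genes rose under DCB. The list medians under DCB were -0.18, -0.37 and -0.38, against 0.61, 0.71 and 0.26 for the 34 constitutive genes.

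Under CPA 2 of these 4 genes fell in hCAR/hPXR livers, 1 in CARko/PXRko livers and none in wild type livers, against 2.9%, 3.31% and 0.633% of all genes. In hCAR/hPXR livers Psmb8 fell from 9.58, 9.61 and 9.69 to 8.53, 8.40 and 8.90 (-1.01 ± 0.25, adjusted p = 0.0187), and Psmb10 fell from 9.98, 9.69 and 10.03 to 8.82, 9.0 and 8.84 (-1.01 ± 0.23, adjusted p = 0.0105). Psme1 fell in CARko/PXRko livers (-0.51, adjusted p = 0.029). The same genes in wild type livers were at -0.82 (Psmb8), -0.70 (Psmb10) and -0.29 (Psme1) with no call, and the list medians were -0.73, -0.94 and -0.71 over the 3 genotypes. Among corn oil arrays, PXRko replicate 2 stood apart for these genes, with Psmb8 at 10.50 beside 9.43 and 9.59.

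Markers of Kupffer cells and macrophages also had negative medians under both drugs, though single markers lay above 0. Of 10 such markers, 2, 8 and 1 fell under CPA over the wild type, hCAR/hPXR and CARko/PXRko livers (medians -0.83, -1.26 and -0.30), against 0.633%, 2.9% and 3.31% of all genes. Under DCB 0, 7 and 0 fell (medians -0.43, -0.99 and -0.47), against 0.125%, 4.35% and 0% of all genes. The highest was Marco under CPA (0.49, 0.74 and 1.48) and Cd68 under DCB (0.96, 0.13 and 1.01). Differences above 0 numbered 1, 1 and 2 under CPA and 1, 1 and 1 under DCB. The summed level of the 10 markers was 13.3 to 13.5 on hCAR/hPXR corn oil arrays, 11.54 to 12.78 under CPA and 12.28 to 12.51 under DCB, and Timd4 fell to or below the array median on at least 1 CPA array of each genotype. The part of these markers in the immunoproteasome values was not tested. Of the 6 hepatocyte markers measured none was called in any treatment effect. Of 7 stellate cell and fibroblast markers, 2 fell under DCB in hCAR/hPXR livers (median -0.91) and 2 under CPA in CARko/PXRko livers (median -0.99), against 4.35% and 3.31% of all genes. Of 6 endothelial markers, 1 rose and 2 fell under CPA in CARko/PXRko livers and 1 fell under CPA in hCAR/hPXR livers, where 1 of 4 tested lymphocyte markers also fell. Of all genes, 2.18% rose and 3.31% fell under CPA in CARko/PXRko livers, and 2.9% fell in hCAR/hPXR livers. The part of these cell types in the subunit values was not tested.

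Other genes of the system were followed as lists. Among 5 assembly factors of the core particle, Psmg1 rose in hCAR/hPXR livers under DCB (0.49, adjusted p = 0.0293), and Pomp, the maturation factor, differed by 0.37, 0.48 and 0.16 over the 3 genotypes without a call. Among 14 activators, inhibitors and associated factors, 3 rose in hCAR/hPXR livers under DCB: Psme3, the nuclear activator PA28 gamma (0.90 ± 0.16, adjusted p = 0.00118), the proteasome deubiquitinase Usp14 (0.71, adjusted p = 0.0228) and the proteasome adaptor Ecpas (0.60, adjusted p = 0.0215). None of the 14 was called under DCB in the other genotypes, and under CPA only the ubiquitin ligase Ube3c rose, in hCAR/hPXR livers (0.54, adjusted p = 0.0354). Of the ubiquitin list, Uba6 alone was measured and it was not called.

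Of 10 transcripts of the NRF1 pathway measured, Ufd1, a cofactor of the extraction ATPase p97, rose under DCB in hCAR/hPXR livers (0.67, adjusted p = 0.0107), and Maff, a small MAF partner, fell under CPA there (-1.03, adjusted p = 0.0329). In that genotype 3.29% of all genes rose under DCB and 2.9% fell under CPA. Nfe2l1 itself differed by -0.07, -0.13 and 0.08 under DCB, with a standard error of 0.23. Of 13 NRF2 targets, 6, 7 and 2 rose under DCB over the wild type, hCAR/hPXR and CARko/PXRko livers, against 0.61%, 3.29% and 0.117% of all genes. Srxn1, an antioxidant enzyme, rose by 2.15, 3.14 and 1.86, and Cbr3, a carbonyl reductase, by 5.11, 5.82 and 4.33. Not every target went up. Me1 read 11.93, 11.66 and 12.19 on the wild type DCB arrays, below its corn oil arrays at 12.70, 12.55 and 12.40, and overlapped its controls in the other genotypes. Under CPA 1 target rose in each genotype, against 0.485%, 1.52% and 2.18% of all genes, and 1 fell in CARko/PXRko livers, against 3.31%. Every CPA array of Gclc lay below all corn oil arrays of its genotype, with 11.43, 11.91 and 11.26 against 12.18, 11.96 and 12.29 in wild type livers.

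The CCT chaperonin, a folding machine unrelated to the proteasome, was carried as a comparison complex. Of its 8 subunits 2 rose in wild type (Cct3 by 0.89 and Cct7 by 0.65), 5 in hCAR/hPXR and none in CARko/PXRko livers under DCB, with medians of 0.37, 0.50 and 0.24. Of all genes, 0.61%, 3.29% and 0.117% rose in these comparisons. None of the 8 subunits was called under CPA.

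**Figure D5:**
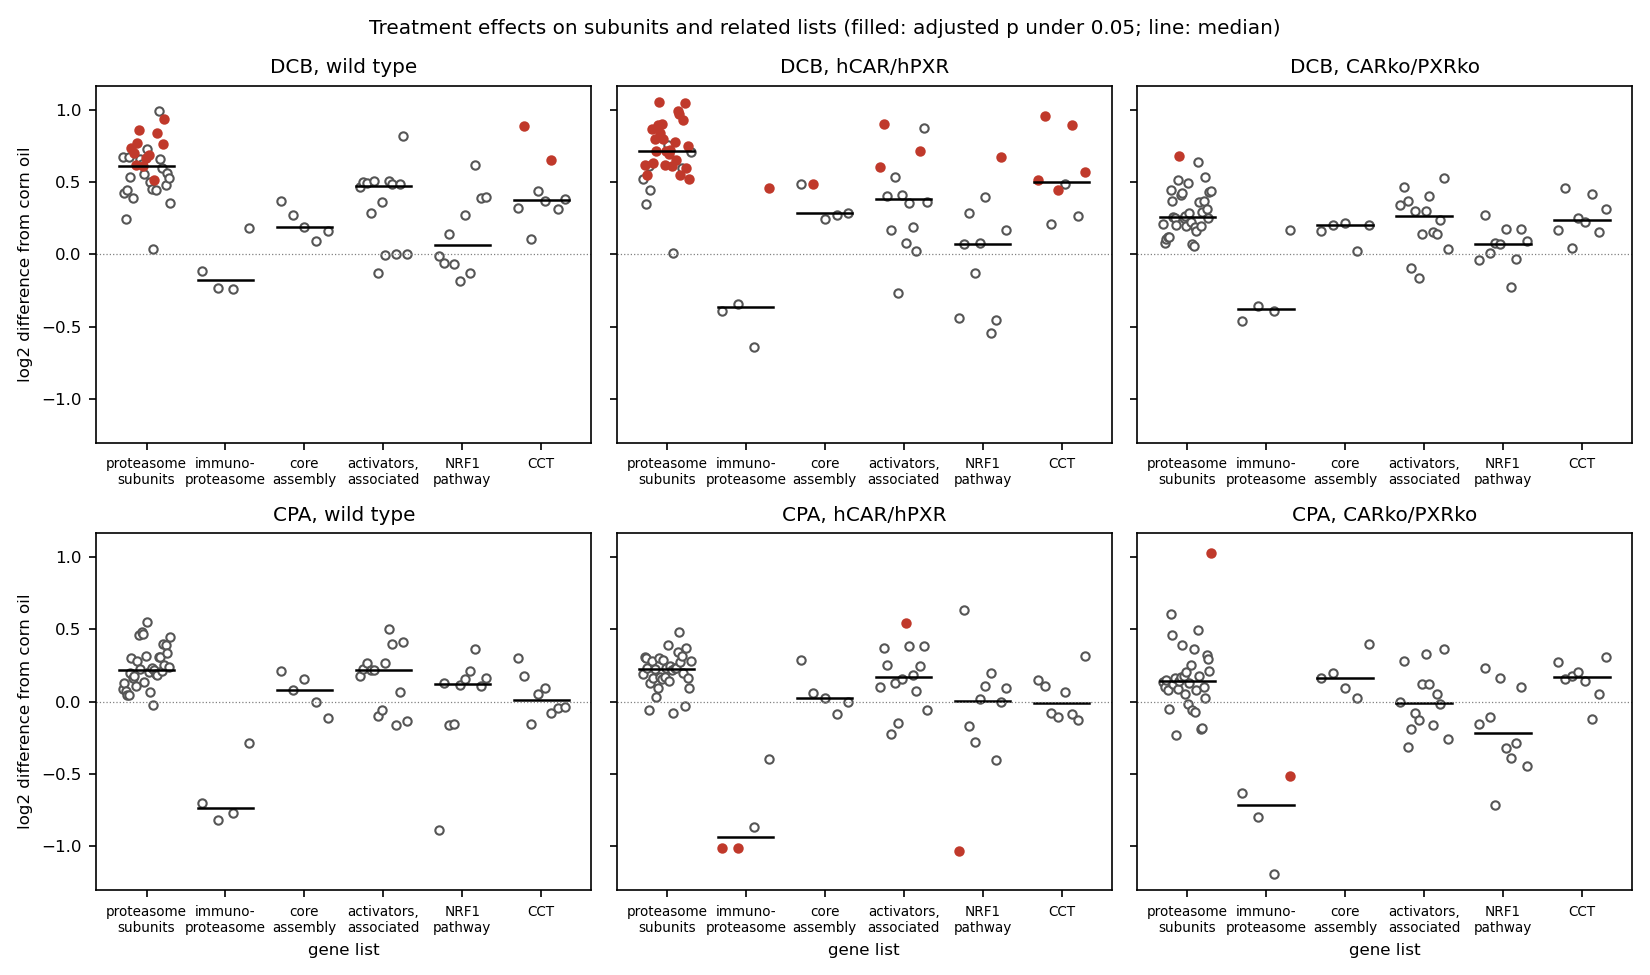
Log2 difference from corn oil of single genes (points; filled red, adjusted p under 0.05; line, list median) for the 34 proteasome subunits and 5 related lists, in 6 panels by treatment and genotype. The subunit median is 0.61 and 0.71 under DCB in the first 2 genotypes, and the immunoproteasome median lies below 0 in every panel, from -0.18 to -0.94.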

How the data were processed

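Liver RNA of 30 samples was hybridised to mouse Affymetrix arrays. The deposited log2 values of 45037 probe sets were computed by the authors with RMA, per the submitters' processing notes; raw scanner files were not used here. Of the probe sets, 34945 name 1 gene, 932 several and 9160 none, and only the first were used. Groups were taken from the sample titles. limma 3.58.1 in R 4.3.3 was fitted with 1 mean per group over all 30 arrays, and p-values were adjusted by the Benjamini-Hochberg method over 12795 genes for each comparison. Array number limits the precision. The members and gene lists were chosen with earlier results of these data known. Values on every array are given for the 4 members with the smallest p in each treatment effect, the cutting sites and Psmd14. From the other lists, only a selection of the called and other genes is named. Array values of Psma1, Psmc4, Psmd2, Psmd3, Psmd5, Psmd9 and Psmd10 under DCB, the motif-bearing promoters shown, and the array comparisons in the closing section were chosen after their values were seen. The fit was tested on simulated data. Alternatives covered the filter, the probe set rule, array weights, scaling, the replicate block, a fold threshold, the muscle-rich arrays and leaving out each array. Replicate numbers do not pair the samples (correlations of deviations from -0.59 to 0.57).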

Additional observations from a re-analysis of the deposited data

Results flagged for a closer look

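For 4 subunits, every CPA array in CARko/PXRko livers lay below the mean of its own corn oil arrays, while every CPA array in wild type and in hCAR/hPXR livers lay above its own. These were Psmb3, Psmd2, Psmd3 and Psmd11. Of all 12795 genes tested, 1.1% showed this pattern, 4.13% showed it against wild type livers and 2.38% against hCAR/hPXR livers. The differences of the CPA effect, CARko/PXRko minus wild type, were -0.33 (Psmb3), -0.5 (Psmd2), -0.39 (Psmd3) and -0.29 (Psmd11), with adjusted p from 0.639 to 0.764 in limma's fit. For hCAR/hPXR minus CARko/PXRko they were 0.26 (Psmb3), 0.46 (Psmd2), 0.49 (Psmd3) and 0.3 (Psmd11), with adjusted p from 0.742 to 0.762. None of these differences passed the test. The pattern was read from 1 probe set per gene. In CARko/PXRko livers the other tested probe sets of Psmd11 had CPA effects from -0.10 to 0.29, with 0.08 on the brightest, and that of Psmb3 had -0.04. Some arrays lay close to the corn oil mean. The nearest were at 0 after rounding for Psmb3 in wild type livers and at -0.04 for Psmd3 and Psmd11 in CARko/PXRko livers. The labelled duration of CPA, 3 days in CARko/PXRko and 6 days in the other genotypes, goes with genotype and cannot be told apart from it.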

How the results depend on the processing

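Of 1314 alternative values for 71 results, 1222 stayed close to the main value. That number is no measure of stability, because part of it was fixed in advance. Counts of 0 in both fits were taken as close, which covers every count of subunits called lower and every genotype comparison and difference of effects. Settings that change only the test, or fit only the groups compared, leave the fitted differences and their medians as they were, and so did the replicate block. Another 53 lost a call or had clearly fewer calls, 34 gained one or had clearly more, 3 medians moved and 2 values changed sign. For single genes, close meant the same direction and side of the threshold. For medians it meant a shift below the spread between replicates (0.1305). For counts it meant a change within a set fold. The fall from 26 to 18 under DCB in hCAR/hPXR livers with 1 array left out thus counted as close. The number of subunits called higher under DCB in wild type livers was 31 with array weights, 1 against a fold of 1.2 and 4 with only the groups compared, and 4 to 21 with 1 array left out; the median effect was 0.45 with probe sets averaged per gene and 0.50 to 0.75 with 1 array left out. For DCB in hCAR/hPXR livers the count was 8 against a fold of 1.2 and 4 with only the groups compared. For DCB in CARko/PXRko livers it was 3 with array weights, 0 against a fold of 1.2 and with only the groups compared, 0 without the 4 muscle-rich arrays, where 1 DCB array is left and the count says nothing about stability, and 0 to 2 with 1 array left out. For CPA it was 17 with array weights, 2 with only the groups compared and 0 to 1 with 1 array left out in wild type livers, and 1 with probe sets averaged in hCAR/hPXR livers. In CARko/PXRko livers under CPA it was 0 with probe sets averaged, array weights, a fold of 1.2, only the groups compared or without the 2 arrays richest in muscle, and 0 to 3 with 1 array left out, where the median ran from 0.021 to 0.27. The sign changed for Psmb7 under CPA in hCAR/hPXR livers without CPA replicate 3 (-0.0012) and for Psmd14 under CPA in CARko/PXRko livers without CPA replicate 2 (-0.22; 0.57 without CPA replicate 3). Fits of only the groups compared have fewer residual degrees of freedom, and the estimate of array weights stopped before convergence; the other causes were not tested. With the replicate number as a block, which pairs nothing here, 13, 26 and 1 subunits were called under DCB and 0, 0 and 1 under CPA. The number of arrays, 3 per group, limits the precision, and signal over background was not measured.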

Other observations

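The third hCAR/hPXR DCB array set some subunits apart from its group in opposite directions. Psma1 read 12.16, 12.01 and 11.38 on the 3 DCB arrays, Psmd5 10.50, 10.50 and 9.76, and Psmd2 12.20, 12.19 and 11.31, whereas Psmd9 read 9.69, 9.64 and 10.82 and Psmd10 7.93, 7.92 and 8.45. The median over all 34 subunits was nevertheless 0.75 on that array, beside 0.70 on each of the others.

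Among the corn oil arrays, PXRko replicate 2 was high in the immunoproteasome genes: Psmb8 read 10.50 beside 9.43 and 9.59, Psmb9 10.64 beside 9.06 and 9.07, and Psmb10 10.81 beside 9.82 and 9.94.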
